A study of Mus musculus with 81 samples.

Results

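NICD1-ER, in which the intracellular part of Notch1 is joined to the estrogen receptor, was switched on with 4-hydroxytamoxifen (4-OHT) for 8 h in mature T cells of a mouse hybridoma. The comparison holds the 3 libraries labelled NICD1-ER with 8 h of 4-OHT and the 2 ethanol libraries whose column headings occur once, 5 libraries of the 81 samples in the series. The series studies RBPJ, the DNA-binding factor of the Notch pathway, by chromatin and RNA sequencing in these cells. Both groups carried NICD1-ER, introduced by infection. The 8 h libraries came from cells given 1 µM 4-OHT, the active form of tamoxifen, for 8 h, and the others from cells given ethanol, the solvent control, for 24 h. Libraries with 4 h of 4-OHT (3) and 24 h of 4-OHT (2) were fitted together with them. No ethanol library of 8 h and no library from cells without NICD1-ER given 4-OHT was analysed here, so activation of the fusion, 4-OHT itself and the hours in culture cannot be told apart at 8 h. The labels give the line, its infection and its treatment, and name neither the promoter that drives NICD1-ER nor whether a clone or a pool of infected cells was used.

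Notch receptors are cut after binding a ligand on a neighbouring cell, and the intracellular domain then enters the nucleus, where it binds RBPJ and recruits Mastermind and histone acetyltransferases to target genes. Without it, RBPJ can hold corepressors at the same genes. A fusion to the estrogen receptor ligand-binding domain stays inactive until 4-OHT is added, which bypasses ligand and cleavage. In T cells the pathway is known for its part in the choice of the T lineage, in thymocyte growth and in the effector programmes of mature cells.

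Because RBPJ recognises the core TGGGAA, 6 promoters of genes described below are shown, each with 250 bases before and 50 after an annotated start (RefSeq, GRCm38.p6, written along the gene's strand). Nrarp and Dtx1 are textbook Notch targets, and Gcnt2 and Gpr183 were among the 15 largest rises. Cd22 was among the rises with the smallest p-values at 50 CPM or more, and Isg15 was the largest rise of the interferon list. No rule set this choice, and larger rises such as Slc45a4, Rhov and Clip4 are not shown. The 6 promoters therefore do not tell how often the core occurs among rises. Capitals mark TGGGAA on the gene's strand or TTCCCA where the core lies on the other strand. Positions count from the start, with bases before it negative.
Nrarp, chr2:25180508-25180807, plus strand: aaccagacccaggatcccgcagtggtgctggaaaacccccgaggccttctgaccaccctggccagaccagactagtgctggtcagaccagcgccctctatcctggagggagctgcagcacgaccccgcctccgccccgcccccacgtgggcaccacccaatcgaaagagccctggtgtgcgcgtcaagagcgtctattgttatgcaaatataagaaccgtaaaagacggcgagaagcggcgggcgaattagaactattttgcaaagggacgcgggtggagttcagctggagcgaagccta
Dtx1, chr5:120711620-120711919, minus strand: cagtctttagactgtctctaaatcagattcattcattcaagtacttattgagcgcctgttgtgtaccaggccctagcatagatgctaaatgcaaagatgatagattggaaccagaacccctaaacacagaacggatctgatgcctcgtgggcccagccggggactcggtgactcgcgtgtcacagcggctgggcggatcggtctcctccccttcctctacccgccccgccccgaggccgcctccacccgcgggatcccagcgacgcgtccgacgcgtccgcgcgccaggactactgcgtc
Gcnt2, chr13:40917384-40917683, plus strand: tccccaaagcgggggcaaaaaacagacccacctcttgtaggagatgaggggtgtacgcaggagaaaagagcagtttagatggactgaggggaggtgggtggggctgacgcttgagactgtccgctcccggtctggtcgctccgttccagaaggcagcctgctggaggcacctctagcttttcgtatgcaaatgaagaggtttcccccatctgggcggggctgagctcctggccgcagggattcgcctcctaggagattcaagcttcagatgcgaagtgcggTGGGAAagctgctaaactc
Isg15, chr4:156200769-156201068, minus strand: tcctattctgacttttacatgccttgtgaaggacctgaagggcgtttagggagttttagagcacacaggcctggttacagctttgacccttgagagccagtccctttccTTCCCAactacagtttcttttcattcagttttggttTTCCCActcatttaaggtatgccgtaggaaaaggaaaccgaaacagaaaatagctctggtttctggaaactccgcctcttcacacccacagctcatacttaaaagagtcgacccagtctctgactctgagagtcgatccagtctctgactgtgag
Cd22, chr7:30878979-30879278, minus strand: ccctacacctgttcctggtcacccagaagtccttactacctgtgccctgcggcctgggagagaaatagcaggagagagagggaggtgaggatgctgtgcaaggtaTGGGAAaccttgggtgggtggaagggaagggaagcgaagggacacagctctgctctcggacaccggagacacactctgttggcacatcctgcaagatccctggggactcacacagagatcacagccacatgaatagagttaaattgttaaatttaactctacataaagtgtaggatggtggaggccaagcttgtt
Gpr183, chr14:121965144-121965443, minus strand: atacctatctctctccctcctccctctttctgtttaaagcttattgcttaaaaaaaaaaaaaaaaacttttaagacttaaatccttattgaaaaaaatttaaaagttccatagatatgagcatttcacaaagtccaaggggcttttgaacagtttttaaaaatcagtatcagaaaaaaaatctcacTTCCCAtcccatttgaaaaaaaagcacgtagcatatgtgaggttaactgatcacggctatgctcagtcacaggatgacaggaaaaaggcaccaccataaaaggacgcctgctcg
The Gcnt2 window is that of 1 of its 3 annotated starts, the one that holds the longer string GTGGGAA, with the core beginning at position 32. In Isg15 the core occurred 2 times on the other strand, at -141 and -105, and the match at -105 belonged to GTGGGAA. Cd22 held TGGGAA at -145 and Gpr183 held it on the other strand at -64. The windows of Nrarp and Dtx1 did not contain these letters.

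Library totals were 5047244, 5208420 and 5395008 counts after 8 h of 4-OHT and 4325641 and 5225345 counts in ethanol. A level of 3 counts corresponded to 0.556 to 0.694 CPM (counts scaled to the same library total, after TMM factors) in these 5 libraries. Replicates 1 and 2 at 8 h differed by less than sampling noise (chi-square per gene 0.835, against 1.29 and 1.09 for the pairs with replicate 3), so their counts were added up and treated as 1 sample, and each group then has 2 samples. Nothing in the labels says that replicates were separate cultures, so p-values measure only the spread between samples within the NICD1-ER groups fitted together. That spread includes the pair at 24 h of 4-OHT, which differed by less than sampling noise (chi-square per gene 0.928). The T cell label was checked against 10 T cell markers, all of which had counts, with a summed level of 1130 to 1147 CPM at 8 h and 1166 to 1206 CPM in ethanol. Among markers of other cells, 5 of 8 for B cells were at 0 in these libraries (Cd79b, Ms4a1, Pax5 and Ebf1 among them), and the rise of their sum to between 148.9 and 164.7 CPM at 8 h, against 37.36 and 46.1 CPM in ethanol, was nearly all Cd22. Myeloid markers, 2 of 8 at 0 (Adgre1 and Cd14), summed to 27.6 to 32.6 CPM at 8 h and 40.6 to 43.1 CPM in ethanol, and natural killer markers, 4 of 6 at 0, to 57.3 to 61.9 CPM at 8 h and 73.8 to 77.3 CPM in ethanol. The 1 natural killer marker that passed the filter on low counts was Cd226, called lower by edgeR (-0.34) and not called by DESeq2. Erythroid markers (2 of 6 at 0) summed to at most 8.03 CPM and fibroblast markers (4 of 7 at 0) to at most 1.91 CPM in any of the 5 libraries. In bulk RNA, fewer cells of a kind and less RNA per cell cannot be told apart.

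At 8 h, 598 of 11808 genes tested were higher than in ethanol (5.06%) and 627 were lower (5.31%), 1225 in all or 10.4% (edgeR quasi-likelihood test, adjusted p under 0.05). Changes of at least 2-fold were found for 87 of the higher genes (0.737%) and 56 of the lower ones (0.474%), and the median size over all called genes was 0.35 on the log2 scale. The median over all tested genes was 0.0088. The rises extended further than the falls, with the largest named rise at 5.77 (Gcnt2) and the largest named fall at -2.41 (Nos2). Clone-type symbols, which are not named here, made up 19 of the higher and 22 of the lower genes. DESeq2 called 409 genes. The edgeR count was 614 without 8 h replicates 1 and 2 and 774 without ethanol replicate 3.

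**Figure D1:**
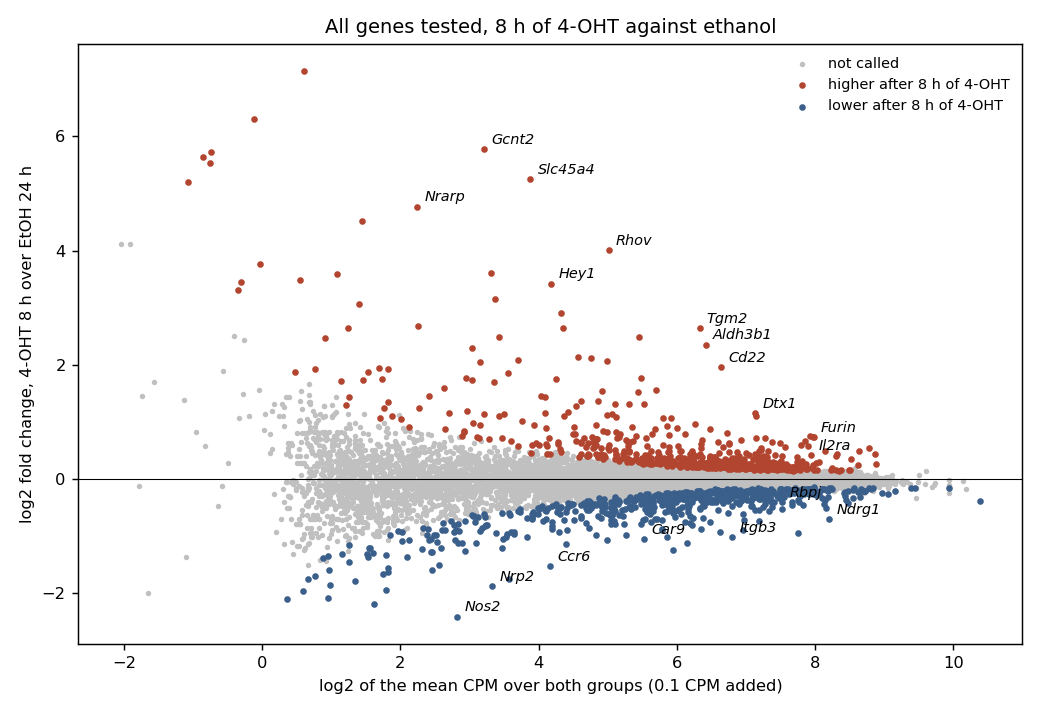
Every gene tested, with the log2 of its mean CPM over both groups on the x axis and the log2 fold change of 8 h of 4-OHT over ethanol on the y axis. Red points are the 598 genes called higher, blue points the 627 called lower and grey points those not called; rises reach beyond 5 log2 units, while named falls end near Nos2 at -2.41.

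Of the 19 Notch target genes listed, 12 passed the filter on low counts (median log2 fold change 0.40). At 8 h, 7 of these were higher (58.3%, against 5.06% of all tested genes) and 2 were lower (16.7%, against 5.31%). A further 3 did not pass the test. The 7 that were not tested were Hes5, Hey2, Heyl, Notch3, Igf1r, Il7r and Rhou. Among the repressors of the Hes and Hey family, Hey1 was at 31.2, 31.6 and 34.7 CPM in the 8 h libraries, against 3.0 and 3.06 CPM in the ethanol libraries. Every 8 h library lay far above both ethanol libraries, and Hey1 rose by 3.42 on the log2 scale (SE 0.19, adjusted p = 2.67e-09, edgeR). Hes1, the best known direct target, was at 67.0, 65.5 and 68.1 CPM at 8 h, against 43.6 and 44.6 CPM in ethanol. The groups did not overlap for Hes1 either, but its rise was much smaller, 0.60 (SE 0.07, adjusted p = 2.13e-05).

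Genes of the feedback on the pathway moved in both directions. Nrarp, a small ankyrin protein that limits Notch signalling, was at 9.68, 8.80 and 8.72 CPM at 8 h, against 0.231 and 0.383 CPM in ethanol. These are 142 counts over the 8 h libraries and 3 counts over the ethanol libraries, a ratio of 28.9 with an exact 95% counting interval of 9.68 to 142, which covers counting error only. Nrarp was thus close to undetected in ethanol and clearly present in each 8 h library. Dtx1, which encodes the ubiquitin ligase Deltex, was at 192, 191 and 194 CPM at 8 h, against 88.3 and 85.5 CPM in ethanol, with a log2 fold change of 1.15 (SE 0.06, adjusted p = 1.3e-09, edgeR). Notch1, the receptor whose intracellular domain the fusion contains, was at 137, 139 and 135 CPM at 8 h, against 159 and 155 CPM in ethanol. All 8 h libraries were below both ethanol libraries, by 0.20 log2 units at the group level (adjusted p = 0.0217), a call that DESeq2 did not make (adjusted p = 0.288) and that was lost whichever 8 h or ethanol sample was left out (adjusted p 0.0615 to 0.104). Whether reads of the NICD1-ER construct were counted under Notch1 is not given in the sources used here.

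Among T cell effectors of Notch, Trib2, a pseudokinase gene, showed the largest rise. It was at 66.2, 59.0 and 65.8 CPM at 8 h, against 19.8 and 23.9 CPM in ethanol (log2 fold change 1.53, SE 0.10). Il2ra, the alpha chain of the interleukin-2 receptor, was at 279, 288 and 279 CPM at 8 h, against 212 and 211 CPM in ethanol (0.41, SE 0.05). Both genes had every 8 h library above every ethanol library. Tcf7, which encodes the transcription factor TCF1, was called higher by a small margin (0.16, adjusted p = 0.0457) and Myc, the growth regulator that Notch drives in leukaemic T cells, was called lower (-0.17, adjusted p = 0.0467). Myc was at 175, 171 and 169 CPM at 8 h, against 203 and 184 CPM in ethanol. DESeq2 called neither Tcf7 (adjusted p = 0.515) nor Myc (adjusted p = 0.426). Without ethanol replicate 2 the value for Myc was -0.10 (adjusted p = 0.336) and without ethanol replicate 3 that for Tcf7 was 0.10 (adjusted p = 0.33). Ptcra (0.12), Ccnd1 (0.38) and Gata3 (-0.06) did not pass.

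**Figure D2:**
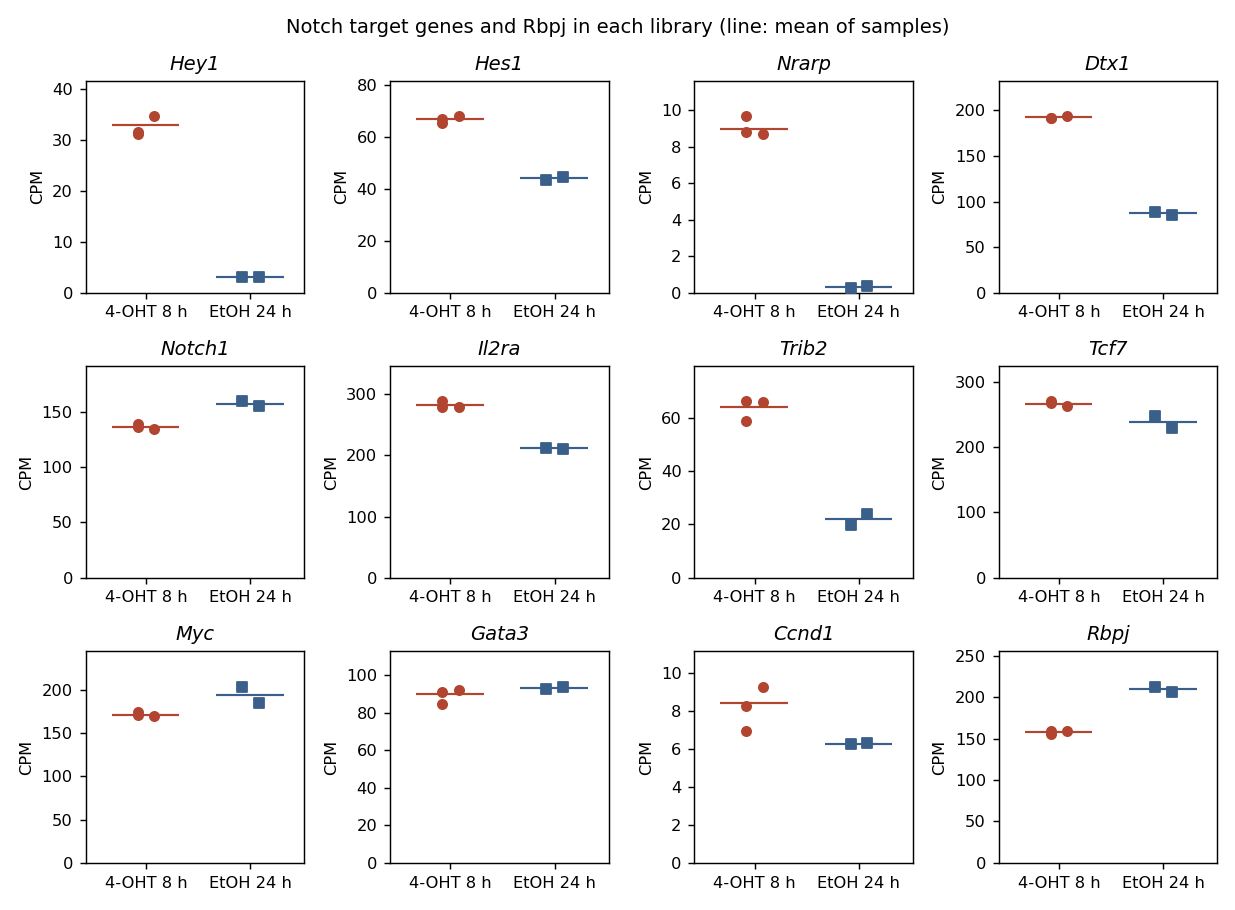
CPM on the y axis of 11 Notch target genes and Rbpj in each library, with 3 libraries after 8 h of 4-OHT (red circles) and 2 in ethanol (blue squares); lines are the means over samples and each axis starts at 0. Hey1, Nrarp, Dtx1 and Trib2 separate widely, Hes1, Il2ra and Rbpj by less, and Gata3 overlaps.

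Genes that make, cut and transmit the Notch signal were called at about the share of all tested genes, 11.1% against 10.4%. Of 27 tested genes of the pathway machinery, 1 was higher, 2 were lower and 24 did not pass (median 0.03). The riser was Furin, the protease that cleaves Notch receptors on their way to the surface, at 328, 311 and 308 CPM at 8 h, against 195 and 184 CPM in ethanol (log2 fold change 0.73, SE 0.05). Lfng, a glycosyltransferase that modifies Notch receptors, was lower by 0.34 log2 units (adjusted p = 0.00185, edgeR), and Notch2 was lower by 0.26 (adjusted p = 0.00352). Of 22 tested genes of the RBPJ complex, 3 were higher (13.6%, against 5.06% of all tested genes) and 2 lower (9.09%, against 5.31%). Their median was 0.01. Rbpj itself was at 156, 160 and 159 CPM at 8 h, against 213 and 206 CPM in ethanol. The groups were well apart, with a fall of 0.40 log2 units (SE 0.05, adjusted p = 1.37e-05). The acetyltransferase gene Kat2a rose by 0.19 and the H3K4 methyltransferase gene Kmt2d by 0.30, while Bcor, a corepressor gene, fell by 0.24. Kat2a, Kmt2d, Bcor and Lfng were not called by DESeq2.

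Beyond the Notch list, the 15 largest rises ran from 2.35 to 5.77 on the log2 scale and included Nrarp and Hey1; naming required each 8 h library to lie above both ethanol libraries, as 22% of all tested genes did. Gcnt2, a glycosyltransferase that branches surface carbohydrate chains, was at 16.6, 20.5 and 17.4 CPM at 8 h, against 0.461 and 0.191 CPM in ethanol, or 285 against 3 counts (ratio 58, 95% counting interval 19.6 to 283). Slc45a4, a solute carrier gene, was at 30.6, 26.2 and 28.6 CPM at 8 h, against 0.692 and 0.765 CPM in ethanol (log2 fold change 5.24, SE 0.25). Rhov, a small GTPase gene, was at 61.2, 60.9 and 60.3 CPM at 8 h, against 3.69 and 3.83 CPM in ethanol (4.01, SE 0.13). In ethanol all 3 genes were near or within a few CPM of the floor, while the 8 h libraries agreed closely with each other. Clip4, a gene of the CAP-Gly linker family, rose by 3.61 (SE 0.24). The adjusted p-values of Slc45a4, Rhov and Clip4 were at most 4.33e-08 (edgeR).

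Several of the strongest rises were of surface or signalling proteins. Tgm2, tissue transglutaminase, was at 142, 146 and 132 CPM at 8 h, against 22.6 and 22 CPM in ethanol (log2 fold change 2.64, SE 0.09). Cd22, an inhibitory lectin best known on B cells, was at 161, 148 and 163 CPM at 8 h, against 37.4 and 43.6 CPM in ethanol (1.95, SE 0.07). In both genes the lowest 8 h library was more than 3 times the highest ethanol library. Gpr183, the oxysterol receptor that guides lymphocyte migration, rose by 2.64 (SE 0.15) and its neighbour Gpr18, another G protein-coupled receptor gene, by 2.48 (SE 0.21). Plxnd1, a semaphorin receptor gene, rose by 2.49 (SE 0.11). Among genes of at least 50 CPM with the smallest p-values were also Rasal1, a Ras GTPase-activating protein gene (1.10), Ptk2b, which encodes the kinase PYK2 (0.75), Ndst1, a heparan sulfate sulfotransferase gene (0.74), and Dusp1, a MAP kinase phosphatase gene (1.57), all with an SE of 0.10 or less. Cd22 was the marker that raised the B cell sum, and the other B cell markers with counts did not pass the filter.

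The 15 largest falls were smaller, from -1.21 to -2.41, and most were of genes of low level; naming required each 8 h library to lie below both ethanol libraries, as 18.7% of all tested genes did. Nos2, the inducible nitric oxide synthase, was at 2.77, 1.91 and 2.04 CPM at 8 h, against 10.1 and 13.4 CPM in ethanol (log2 fold change -2.41, SE 0.24). Nrp2, a semaphorin and VEGF co-receptor gene, was at 3.95, 3.83 and 4.82 CPM at 8 h, against 15.9 and 15.1 CPM in ethanol (-1.87, SE 0.19). Ccr6, the receptor of the chemokine CCL20, was at 8.49, 8.04 and 10.6 CPM at 8 h, against 26.3 and 26.2 CPM in ethanol (-1.53, SE 0.16). These 3 genes kept a few CPM in every 8 h library. The other falls among the 15 largest were Gipr (-1.94), Ypel2 (-1.76), Stc1 (-1.62), Camk2b (-1.60), Porcn (-1.56), Zfyve28 (-1.51), Eno2 (-1.37), Fam171b (-1.28), Des (-1.27), Ankrd35 (-1.26), Unc13a (-1.24) and Oit3 (-1.21). At 24 h of 4-OHT against ethanol, Nrp2 (-2.07), Ccr6 (-1.47), Ypel2, Zfyve28, Des, Unc13a and Oit3 were also called lower. Nos2 (0.39), Gipr (0.72), Camk2b, Porcn, Eno2, Fam171b and Ankrd35 were not called there, and Stc1 was called higher. At 8 h, Porcn, Eno2, Fam171b, Des and Oit3 were not called by DESeq2 (adjusted p 0.063 to 0.107). Porcn was at 2.57, 1.34 and 1.30 CPM at 8 h, against 6.92 and 3.63 CPM in ethanol, and without ethanol replicate 2 its value was -1.07 (adjusted p = 0.15). Without 8 h replicates 1 and 2 the adjusted p was 0.111 for Eno2 and 0.0544 for Oit3, and without ethanol replicate 3 it was 0.0744 for Des.

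Among genes of at least 50 CPM, the falls with the smallest p-values were led by Itgb3, the integrin beta 3 chain, at 71.1, 75.6 and 73.1 CPM at 8 h, against 151 and 147 CPM in ethanol (log2 fold change -1.02, SE 0.05, adjusted p = 1.3e-09, edgeR). Fam102a was at 145, 139 and 153 CPM at 8 h, against 285 and 280 CPM in ethanol (-0.95, SE 0.05). Both were near 1 log2 unit down, and the gap between groups was much wider than the spread within them. Arrb1, which encodes beta-arrestin 1, fell by 1.11, Mxd4, a MAX partner that opposes MYC, by 1.01 and Btg2, an antiproliferative gene, by 0.93. Zcchc14 fell by 0.89, the clock output gene Dbp by 0.87 and the H3K4 demethylase gene Kdm5b by 0.71. At 24 h of 4-OHT against ethanol, Arrb1 (0.07) and Kdm5b (-0.14) were not called. The other genes of this paragraph were called lower there too, with Itgb3 at -0.65 and Zcchc14 at -0.90.

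**Figure D3:**
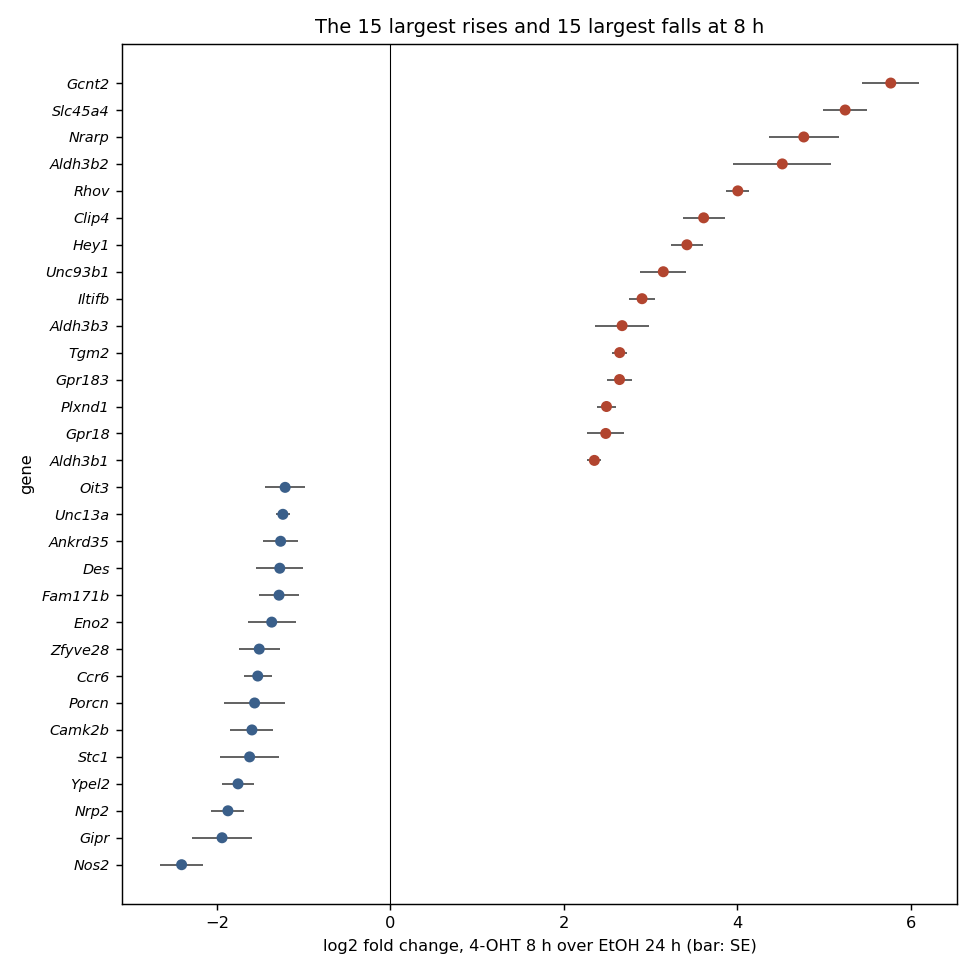
Log2 fold change (x axis, 8 h of 4-OHT over ethanol) of the 15 largest rises (red) and the 15 largest falls (blue), with bars for the SE. Rises run from 2.35 (Aldh3b1) to 5.77 (Gcnt2) and falls from -1.21 (Oit3) to -2.41 (Nos2).

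Risers often lay beside other risers in the gene order of GRCm38. Among 580 higher genes with a place in that order, 130 had a called higher gene directly beside them (22.4%), against 10.2% of all 10953 placed genes that had such a neighbour; for rises of at least 2-fold it was 30 of 82 (36.6%). For lower genes it was 119 of 611 (19.5%), against 10.8% of all placed genes. These shares are a description, with no test. The aldehyde dehydrogenase genes Aldh3b1 (2.35), Aldh3b3 (2.67) and Aldh3b2 (4.52) rose in a row with Unc93b1 (3.15), a chaperone of nucleic acid-sensing Toll-like receptors. Aldh3b2 had 82 counts at 8 h and 2 in ethanol (ratio 25, interval 6.71 to 210). Aldh3b1 was the most abundant in CPM of this row, at 144, 148 and 139 CPM at 8 h, against 27.7 and 28.3 CPM in ethanol. Rasal1 and Dtx1 were also neighbours, with nearly equal rises (1.10 and 1.15).

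The cytokine gene Il22, which protects epithelia, was at 46.2, 44.4 and 42.5 CPM at 8 h, against 9.69 and 10.5 CPM in ethanol (log2 fold change 2.12, SE 0.12). Its neighbour and near-identical copy Iltifb was at 36.1, 34.1 and 35.6 CPM at 8 h, against 4.38 and 4.97 CPM in ethanol (2.90, SE 0.15). All 8 h libraries exceeded both ethanol libraries by a wide margin in both. How reads shared by the copies, by the Aldh3b paralogs or by overlapping neighbours were assigned is not given in the sources used here, so their separate values are uncertain. Nrarp was followed by Tor4a (0.30), and Furin was flanked by Fes (1.05) and Blm (0.24). The members of these rows other than the named rises were chosen after their values were seen.

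The promoter windows were searched for GTGGGAA and for its core TGGGAA on both strands, and every GTGGGAA match is also a TGGGAA match. GTGGGAA was found in 11 of 69 genes that rose at least 2-fold and had a window (15.9%), in 38 of 469 higher genes (8.1%), in 34 of 470 lower genes (7.23%) and in 612 of all 8808 tested genes with a window (6.95%). Of genes that fell at least 2-fold, 1 of 36 held it (2.78%). For TGGGAA the shares were 36.2% of the rises of at least 2-fold, 30.1% of higher genes, 27.2% of lower genes and 26.1% of all tested genes. Gcnt2 and Isg15, shown above, were among the 11, while Nrarp and Dtx1 held neither string in the window shown. A match describes letters within 300 bases and says nothing of binding.

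Among genes of glycolysis and of the response to low oxygen, calls at 8 h ran in one direction. Of 30 tested, 15 were lower and the other 15 did not pass, with a median of -0.20 on the log2 scale, where 5.31% of all tested genes were lower. Car9, a carbonic anhydrase gene induced by hypoxia, was at 30.0, 29.5 and 30.6 CPM at 8 h, against 60.7 and 63.5 CPM in ethanol (-1.05, SE 0.08, adjusted p = 1.31e-07, edgeR). Ndrg1, a stress-induced gene, was at 224, 227 and 223 CPM at 8 h, against 381 and 352 CPM in ethanol (-0.71, SE 0.05). Ethanol was the higher group in every library of both genes. The mitophagy receptor gene Bnip3 fell by 0.74, the aldolase gene Aldoc by 0.89 and Ankrd37 by 0.87. Falls of the glucose transporter gene Slc2a1 (-0.23), of Pfkl (-0.24), of Aldoa (-0.22) and of the prolyl hydroxylase gene P4ha1 (-0.33) were small. DESeq2 called 7 of the 15 lower, and 9 stayed called without ethanol replicate 2 and 10 without 8 h replicates 1 and 2.

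For the 15 lower genes, the other 4-OHT times were set beside 8 h. The 24 h group matches ethanol in hours and differs from the 8 h group in both hours and length of 4-OHT. Over all tested genes, 6.25% were called at 4 h against ethanol (3.16% higher, 3.09% lower) and 10.8% at 24 h (6.59% higher, 4.22% lower). At 24 h against 8 h, 7.66% of all tested genes were higher. Of the 15, 12 were also called lower at 4 h against ethanol, 10 were higher at 24 h than at 8 h, and 1 was called at 24 h against ethanol, where the 15 values ran from -0.15 to 0.45. Car9 was at -0.45 at 4 h, -1.05 at 8 h and 0.00 at 24 h, and rose between 8 and 24 h by 1.05 (adjusted p = 1.66e-07, edgeR). Ndrg1 was at -0.72, -0.71 and 0.06 at the same times and Bnip3 at -0.64, -0.74 and 0.00. The 1 call at 24 h was Ankrd37, at -1.52, -0.87 and 0.45. All values against ethanol share the ethanol samples. The 15 were chosen for low 8 h values, which the test of 24 h against 8 h uses again, so the choice favours a rise there. At 4 and 8 h, culture time and 4-OHT cannot be told apart in these falls.

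**Figure D4:**
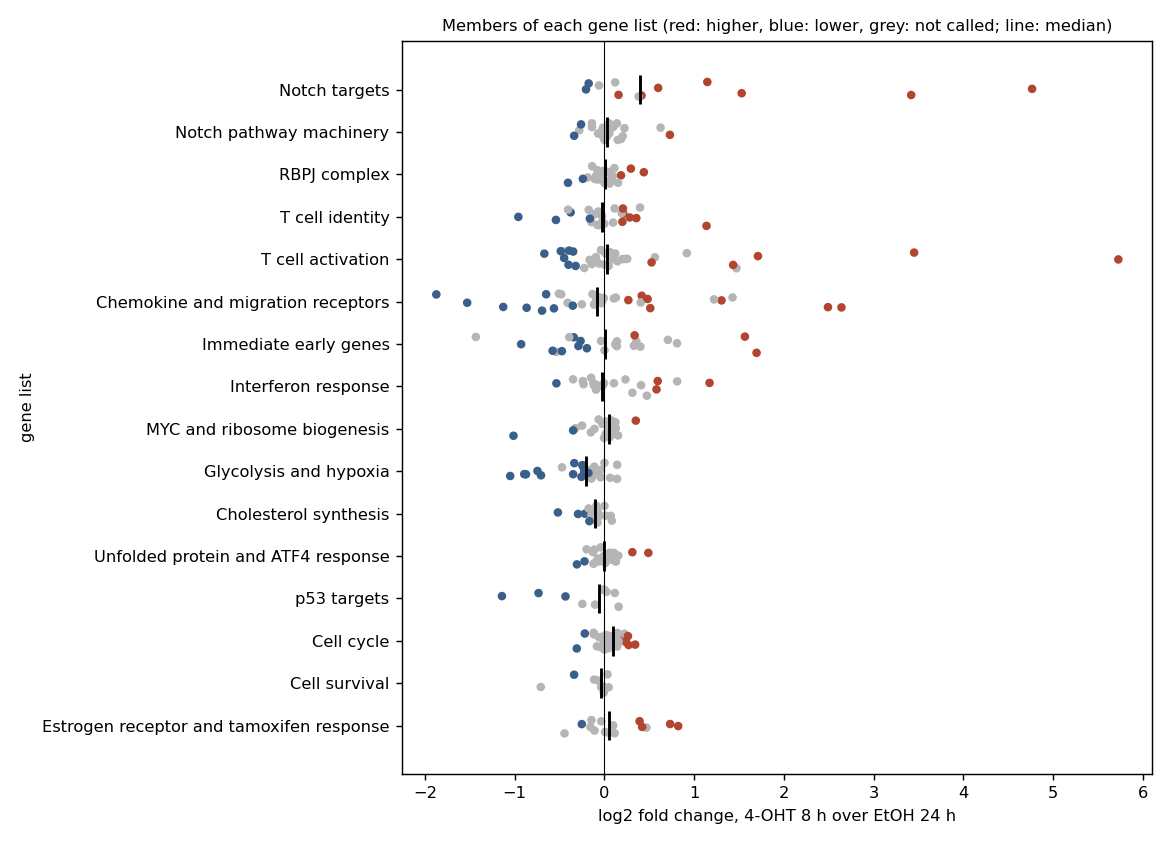
Log2 fold change (x axis, 8 h of 4-OHT over ethanol) of every tested member of 16 gene lists, with red for called higher, blue for called lower, grey for not called and a black line for the median. The Notch target median lies at 0.40 and the glycolysis and hypoxia median at -0.20, with the other medians between -0.10 and 0.09.

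Receptors that steer T cells moved in both directions. Of 34 tested chemokine and migration receptor genes, 7 were higher (20.6%, against 5.06% of all tested genes) and 8 lower (23.5%, against 5.31%), with a median of -0.08. Ccr7, the lymph node homing receptor, was at 52.5, 47.9 and 47.5 CPM at 8 h, against 21.9 and 18.2 CPM in ethanol (log2 fold change 1.31, SE 0.13). Cxcr6, a receptor of tissue-resident T cells, was at 39.7, 39.4 and 38.0 CPM at 8 h, against 69.6 and 72.3 CPM in ethanol (-0.87, SE 0.08). Neither gene had overlapping groups. Ccr4 (0.42), the integrin gene Itgal (0.27) and Klf2 (0.51), a factor that maintains homing receptors, were higher, beside Gpr183 and Plxnd1. Ccr2 (-0.69), Cxcr3 (-1.13), Ccr8 (-0.35) and the plexin genes Plxna3 (-0.56) and Plxnc1 (-0.65) were lower, beside Ccr6 and Nrp2. Klf2, Cxcr3, Ccr8 and Plxna3 were not called by DESeq2.

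Genes of T cell identity were split, with 6 of 25 higher (24%, against 5.06% of all tested genes) and 4 lower (16%, against 5.31%), and a median of -0.03. Cd6, a receptor that modulates T cell receptor signals, was at 44.8, 49.2 and 44.5 CPM at 8 h, against 22.4 and 19.7 CPM in ethanol (log2 fold change 1.14, SE 0.11). Cd4 was at 8.49, 7.08 and 7.97 CPM at 8 h, against 14.8 and 15.7 CPM in ethanol (-0.96, SE 0.17). Cd6 was higher in every 8 h library and Cd4 lower in every one. Lef1 (-0.54) and Bcl11b (-0.16) were also lower and Runx3 (0.36), Runx1 (0.28), Tox (0.21), Lck (0.21) and Fyn (0.20) higher. DESeq2 called 2 of the 6 higher and 3 of the 4 lower genes. Without ethanol replicate 3, 2 of the 6 higher genes stayed called.

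Of 33 tested genes of T cell activation, 5 were higher (15.2%, against 5.06% of all tested genes) and 7 lower (21.2%, against 5.31%), with a median of 0.03. In a fit of the 8 h and ethanol samples alone, 3 of the 5 higher genes had a value and stayed called. The others passed the filter on low counts only with the other 4-OHT groups in the fit. Havcr2, which encodes the checkpoint receptor TIM-3, was at 24.9, 27 and 23.2 CPM at 8 h, against 10.8 and 7.84 CPM in ethanol (log2 fold change 1.44, SE 0.15, adjusted p = 7.21e-06, edgeR). Tbx21, the gene of the type 1 helper factor T-bet, was higher by 0.53 (SE 0.12) and Cd160 by 1.71 (SE 0.42). Prf1, which encodes perforin, had 16 counts over the 8 h libraries and none in ethanol, at least 3.25-fold higher than a floor of 3 counts over the ethanol group. Il10 had 21 counts at 8 h and 1 in ethanol (ratio 12.8, interval 2.06 to 530). The lower genes were Maf (-0.67), the costimulatory receptor genes Tnfrsf9 (-0.49) and Tnfrsf18 (-0.35), the checkpoint gene Pdcd1 (-0.45), Prdm1 (-0.39), Rora (-0.32) and Ltb (-0.40). Of the 5 higher genes, Havcr2 was also called by DESeq2, and of the 7 lower ones 4 were. Without 8 h replicates 1 and 2, 1 of the 5 higher and 3 of the 7 lower genes stayed called.

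Immediate early genes, which respond to signals within minutes, held 3 higher genes of 23 (13%, against 5.06% of all tested genes) and 7 lower ones (30.4%, against 5.31%), with a median of 0.0021. Fosb, an AP-1 subunit gene, was at 16.0, 13.0 and 16.7 CPM at 8 h, against 4.15 and 5.16 CPM in ethanol (log2 fold change 1.70, SE 0.21). Dusp1 was at 79.8, 75 and 78.3 CPM at 8 h, against 21.9 and 29.8 CPM in ethanol (1.57, SE 0.10). Both had all 8 h libraries well above ethanol, and Ier2 rose by 0.34. Btg2 (-0.93), Ier3 (-0.58), Klf6 (-0.47), Fosl2 (-0.34), Jund (-0.29), Dusp6 (-0.26) and Dusp4 (-0.19) fell. Btg2 was called by both tools, and Jund and Dusp4 by edgeR alone.

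Of 22 interferon response genes, 3 were higher (13.6%, against 5.06% of all tested genes) and 1 was lower (4.55%, against 5.31%), with a median of -0.02. Isg15, a ubiquitin-like modifier, was at 29.0, 28.1 and 30.4 CPM at 8 h, against 14.5 and 11.7 CPM in ethanol (log2 fold change 1.17, SE 0.13). Irf9, a subunit of the interferon-activated factor ISGF3, rose by 0.60 and Ifit2 by 0.58. Usp18, the protease that removes ISG15 from proteins, was at 80.6, 79.6 and 76.6 CPM at 8 h, against 120 and 109 CPM in ethanol (-0.53, SE 0.06). Isg15 and the gene of its protease Usp18 thus lay apart between the groups in opposite directions. These 4 calls were also made by DESeq2.

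Of 41 tested cell cycle genes, 6 were higher (14.6%, against 5.06% of all tested genes) and 2 lower (4.88%, against 5.31%), with a median of 0.09. The called values were at most 0.34 in size, with E2f2 (0.34), Ccnb2 (0.27), Cdc20 (0.26), Cdc6 (0.24), Mcm7 (0.18) and Mcm2 (0.16) higher and Cdkn1b (-0.31) and Ccnd2 (-0.22) lower; DESeq2 called 1 of the 6 and 1 of the 2, and 1 of the 6 stayed called without 8 h replicates 1 and 2. Genes of MYC function and ribosome biogenesis were called at about the share of all tested genes, 10% against 10.4%. Of 30 tested, 1 was higher, the nucleolar factor gene Rrp12 (0.35). The 2 lower ones were Mxd4 and Mxi1 (-0.35), both of which encode MAX partners (median 0.05). Among 10 tested p53 targets 3 were lower (30%, against 5.31% of all tested genes). These were the apoptosis gene Bbc3 (-1.14), Trp53inp1 (-0.73) and Sesn1 (-0.43), and each was called in DESeq2 too. Bbc3 was at 13.6, 13.4 and 12.4 CPM at 8 h, against 27.9 and 29.8 CPM in ethanol. Of 9 cell survival genes 1 was lower (11.1%, against 5.31% of all tested genes), Bcl2, which protects from apoptosis (-0.34, SE 0.05). Bbc3 encodes an antagonist of BCL2, so the lower genes of the p53 and survival lists include proteins of opposing action.

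Of 21 cholesterol genes 4 were lower, among them Abcg1 (-0.52), Insig1 (-0.29) and Srebf1 (-0.17), with a median of -0.10; this is 19%, against 5.31% of all tested genes. DESeq2 called 2 of the 4 and lost Abcg1 (adjusted p = 0.0571) and Srebf1 (adjusted p = 0.288), and Srebf1 also lost its call without 8 h replicates 1 and 2, without 8 h replicate 3 or without ethanol replicate 2. The unfolded protein and ATF4 list held 2 higher genes, Slc7a11 (0.49) and Chac1 (0.31), and 2 lower ones, Sesn2 (-0.31) and Trib3 (-0.22), of 23 tested (8.7% in each direction, against 5.06% and 5.31% of all tested genes, median -0.0085). Chac1 and Trib3 were lost with DESeq2 (adjusted p 0.548 and 0.347), and both higher calls were lost without ethanol replicate 2. For genes that respond to estrogen receptor ligands or to foreign compounds, 4 of 15 were higher (26.7%, against 5.06% of all tested genes) and 1 was lower (6.67%, against 5.31%), with a median of 0.05. The higher ones were the quinone reductase gene Nqo1 (0.82, SE 0.20), the drug efflux pump genes Abcb1a (0.73, SE 0.09) and Abcb1b (0.39) and the antioxidant gene Srxn1 (0.42). Abcb1a was at 42.1, 46.1 and 44.7 CPM at 8 h, against 27.4 and 26 CPM in ethanol, with no overlap. Nrip1, a cofactor of the estrogen receptor, was lower (-0.25). DESeq2 lost the calls of Nqo1 (adjusted p = 0.329), Srxn1 (adjusted p = 0.0737) and Nrip1 (adjusted p = 0.191), and that of Nqo1 was lost whichever 8 h or ethanol sample was left out. Esr1, at 4.54, 4.21 and 4.82 CPM at 8 h, against 6.23 and 6.12 CPM in ethanol, did not pass (-0.44, adjusted p = 0.28). Effects of 4-OHT with and without the fusion cannot be told apart in these values.

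Few genes separated 8 h from 4 h. Of 11808 genes, 45 were higher at 8 h than at 4 h (0.381%) and 11 were lower (0.0932%). The largest rises by the naming rule were Nrarp (log2 difference 1.41, adjusted p = 0.00206), Slc45a4 (1.29), Cd7 (1.28, adjusted p = 0.0387), Gcnt2 (1.23) and Tgm2 (1.17). Against ethanol, Nrarp was at 3.35 at 4 h and 4.77 at 8 h, and Tgm2 at 1.47 at 4 h and 2.64 at 8 h. These genes were called at both times except Cd7, whose value at 4 h was 0.65 (adjusted p = 0.453). Hey1 was higher at 8 h than at 4 h by 0.92 (adjusted p = 0.000302), while Hes1 had 0.64 at 4 h and 0.60 at 8 h against ethanol (difference -0.04, adjusted p = 1). Fat1 (-0.61), Car9 (-0.59), Unc13a (-0.50), Btg2 (-0.40) and Slc9a9 (-0.40) were the largest falls. The count of 56 was 12 with DESeq2, 12 without 8 h replicates 1 and 2 and 111 without 4 h replicates 1 and 2, and the last of these held 36 higher and 75 lower genes, so the balance of directions turned with that sample. Of the named rises, DESeq2 lost Nrarp and Cd7 (adjusted p 0.0825 and 0.504), and of the named falls it lost Fat1, Unc13a, Btg2 and Slc9a9 (adjusted p 0.313 to 0.504) and kept Car9.

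More genes separated 24 h from 8 h, with 904 higher at 24 h (7.66%) and 678 lower (5.74%). Replicates 2 and 3 at 24 h differed by less than sampling noise (chi-square per gene 0.928) and were kept as 2 samples. Against ethanol, Gcnt2 was at 5.77 at 8 h and 7.68 at 24 h, Slc45a4 at 5.24 and 7.19, and Hey1 at 3.42 and 4.44. Each of these genes passed the test of 24 h against 8 h (adjusted p at most 1.01e-06, edgeR). Hes1 was at 0.60 at 8 h and 0.71 at 24 h (difference 0.11, adjusted p = 0.302). The largest rises by the naming rule were Igsf1 (4.07), Prf1 (3.92), the DNA glycosylase gene Neil2 (3.85), Cdh15 (3.57) and Lrp1 (3.26), all under 2 CPM in each 8 h library. Fosb had its 8 h rise gone at 24 h, at 1.70 at 8 h and -0.39 at 24 h against ethanol (difference -2.09, adjusted p = 9.05e-06). Trat1 (-1.19), Slc15a1 (-1.06), Acta2 (-1.01) and D4Ertd617e (-1.01) were the other largest falls, of which DESeq2 lost Trat1 (adjusted p = 0.19) and D4Ertd617e (adjusted p = 0.389). The count of 1582 was 353 with DESeq2, and 637 to 660 without 24 h replicate 2, without 24 h replicate 3 or without 8 h replicates 1 and 2.

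**Figure D5:**
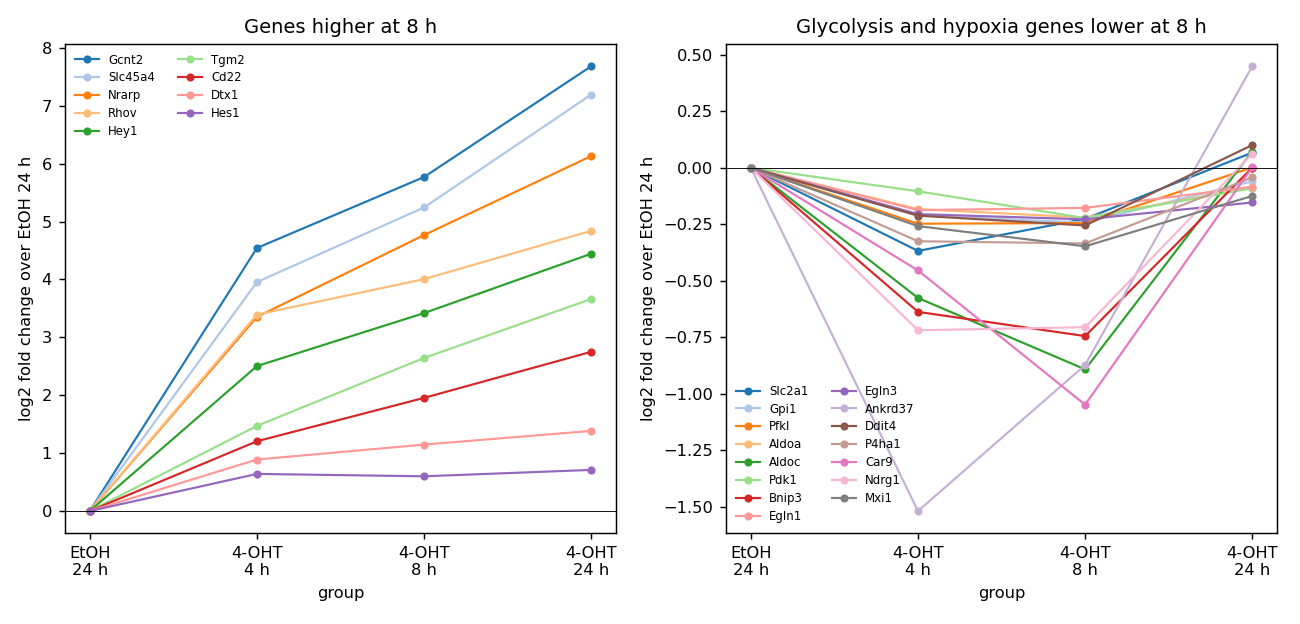
Log2 fold change over ethanol (y axis) at 4, 8 and 24 h of 4-OHT, with the ethanol group at 0. Left, 9 genes higher at 8 h, most of which rise further by 24 h while Hes1 stays between 0.60 and 0.71; right, the 15 glycolysis and hypoxia genes lower at 8 h, which lie between -0.15 and 0.45 at 24 h.

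A separate experiment expressed biotin-tagged NICD1 (BioNICD1) or its control vector (Biocontrol) in hybridoma T cells of the control line, with 3 libraries each and none shared with NICD1-ER. RBPJ-depleted cells of that experiment were in the same fit and are not compared here. Among 11001 genes tested in both, 577 were higher at 8 h, and 267 of these were also higher with BioNICD1, which is 46.3% of the 8 h genes and 13.4% of the BioNICD1 genes, where 18.2% of all shared genes were higher with BioNICD1. The opposite direction was found for 51 of the 577 (8.84%, against 14.2% of all). Of 607 genes lower at 8 h, 129 were also lower with BioNICD1 (21.3% of the 8 h genes and 8.27% of the BioNICD1 genes, against 14.2% of all), and 171 were higher (28.2%, against 18.2%). Genes higher at 8 h were thus found higher with BioNICD1 at above the background share, and genes lower at 8 h were found in both directions at above it. These shares are a description without a test.

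Several genes named above had larger log2 fold changes with BioNICD1, where the level in the controls was lower, but not all did. Nrarp was not tested there, at 0.520 CPM with BioNICD1 and 0 CPM with Biocontrol. Aldh3b1 (1.56 with BioNICD1, 2.35 at 8 h) and Unc93b1 (1.86 with BioNICD1, 3.15 at 8 h) had smaller values. Aldh3b2 and Aldh3b3 were not tested there either. Hey1 had a log2 fold change of 8.39, Hes1 of 2.94, Dtx1 of 7.22, Trib2 of 5.54, Il2ra of 8.99 and Cd22 of 9.63 with BioNICD1 over Biocontrol. The same genes stood at 3.42, 0.60, 1.15, 1.53, 0.41 and 1.95 at 8 h of 4-OHT over ethanol. Cd22 averaged 203 ± 14.2 CPM with BioNICD1 and 0.241 ± 0.247 CPM with Biocontrol (SD, n = 3 each), and 159 CPM at 8 h against 40.5 CPM in ethanol. Dtx1 averaged 249 ± 28.2 CPM with BioNICD1 and 1.67 ± 0.711 CPM with Biocontrol, and 193 CPM at 8 h against 86.9 CPM in ethanol. Hey1 was at 0.208 CPM, Trib2 at 0.447 CPM, Il2ra at 0.945 CPM and Hes1 at 2.22 CPM with Biocontrol, each below its own ethanol level. The difference between the experiments was not tested, and the labels give the level of NICD1 for neither. Myc was higher with BioNICD1 (0.73, adjusted p = 0.000235, edgeR), and Notch1, whose counts may include the construct, was higher by 7.61. Among falls at 8 h, Nrp2 (-1.66), Ndrg1 (-0.97), Kdm5b (-1.08) and Btg2 (-0.52) were also lower with BioNICD1, whereas Fam102a (1.21), Arrb1 (1.05), Ccr6 (1.69) and Usp18 (2.34) were higher. Itgb3 (0.13), Car9 (-0.20), Mxd4 (-0.01) and Rbpj (-0.08) did not pass there.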

How the data were processed

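RNA sequencing of NICD1-ER hybridoma T cells was used as the raw counts per gene symbol that the authors deposited (24391 symbols); 22 of 65 columns were used, and the other 43 either belong to other experiments, name no sample or share a heading. TopHat2 2.1.1, Picard, deepTools and build mm9 are named by the submitters' processing notes without their roles; the counting tool, its strand setting and its annotation are not given in the sources used here. The library kit was a stranded total RNA kit with removal of ribosomal RNA "or others", per the labels. Deposited region lists on mm9 were not used here.

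Counts were normalised by TMM and filtered with filterByExpr in edgeR 4.0.16 (run in R 4.3.3), then fitted with a prior count of 0.125 and 1 mean for each of 4 NICD1-ER groups (10 libraries, 8 samples; replicates 1 and 2 summed at 4 h and 8 h, where they differed by less than sampling noise). Replicates 2 and 3 at 24 h of 4-OHT also differed by less than sampling noise (chi-square per gene 0.928) but were kept as 2 samples. The BioNICD1 experiment was fitted alone (12 libraries, 4 groups: Biocontrol and BioNICD1 in the control line and in RBPJ-depleted cells). Chi-square per gene between libraries of a group was 5.07 to 52.6 in RBPJ-depleted cells and 1.70 to 12.4 in the control line. The spread behind the BioNICD1 calls was estimated over all 4 groups. Contrasts were tested two-sided (quasi-likelihood F), with Benjamini-Hochberg adjustment across every gene tested; called means an adjusted p under 0.05. CPM of a library uses the TMM factor of its sample. The fit was tested on simulated data.

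Genes were named by rule: all Notch targets, called members of the other lists, the 15 largest changes in each direction with libraries that do not overlap and at least 5 CPM, the 10 smallest p-values in each direction at 50 CPM or more, and the 5 largest changes in each direction between 4-OHT times; clone-type symbols were left out, and some genes that the rule names are not reported here. The comparison, the gene lists and these rules were chosen with earlier results of these data known. Alternatives were DESeq2 1.42.0, RLE size factors, no low-count filter, each library as a sample, replicate 2 alone, 8 h and ethanol samples alone, a replicate block, leaving out each sample, a threshold of 0.01 and a test against a fold of 1.2. Promoters are from RefSeq (GRCm38.p6), matched by symbol for 8808 of 11808 tested genes; 10953 were placed in gene order.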

Additional observations from a re-analysis of the deposited data

Results flagged for a closer look

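Of 159 named genes tested, 6 were called in opposite directions at 8 h and at 24 h of 4-OHT against ethanol and also passed the test of 24 h against 8 h (edgeR). Their log2 differences, 24 h over 8 h, were 3.85 for Neil2, 2.60 for Stc1, 1.32 for Ankrd37, 0.64 for Tnfrsf9, 0.63 for Fosl2 and 0.52 for Notch1. Stc1, the gene of the hormone stanniocalcin 1, was at -1.62 at 8 h and 0.98 at 24 h against ethanol. Neil2 was at -1.69 at 8 h and 2.17 at 24 h, on 0.988, 0.766 and 0.556 CPM at 8 h and 2.31 and 2.68 CPM in ethanol. Notch1 was at -0.20 at 8 h and 0.32 at 24 h. The 8 h calls of Neil2 (adjusted p = 0.148) and Notch1 (adjusted p = 0.288) were not made by DESeq2, and both were lost whichever 8 h or ethanol sample was left out. That of Fosl2 was lost without 8 h replicates 1 and 2 (adjusted p = 0.0609). Tnfrsf9 was at -0.49 at 8 h and 0.16 at 24 h, and Fosl2 at -0.34 at 8 h and 0.29 at 24 h. Both times share the ethanol samples, and 24 h against 8 h is the difference between those contrasts in the same fit. Passing that test therefore adds no independent support. With 2 samples a group, single samples that stand apart could not be looked for.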

How the results depend on the processing

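The 1225 genes called at 8 h against ethanol became 409 with DESeq2 (203 higher, 206 lower), 641 at an adjusted p under 0.01, 300 in a test against a fold of 1.2 and 614 to 889 when each sample was left out in turn. With RLE size factors (1208), no low-count filter (1490), each library as a sample (1519), replicate 2 alone (1233) or the 8 h and ethanol samples alone (982) the count stayed within 1.5 times. For 8 h against 4 h, 56 calls became 12 with DESeq2, 126 with no filter, 98 with each library as a sample and 12 to 111 with a sample left out. For 24 h against 8 h, 1582 became 353 with DESeq2 and 637 to 1173 with a sample left out, and the share of calls that were higher was 76.8% with DESeq2, against 57.1% in edgeR. DESeq2 called 212 genes at 4 h and 588 at 24 h against ethanol, where edgeR called 738 and 1276. The BioNICD1 count of 3723 ran from 2701 to 3262 with a library left out. Samples with the same replicate number correlated at r = 0.155 between 8 h and ethanol, and at 0.0524 to 0.16 over all pairs of NICD1-ER groups. With 2 numbers a group, whether such samples share more than a number was not tested. A fit with the replicate block called 1807 genes at 8 h, 152 for 8 h against 4 h, 1174 at 4 h and 3813 with BioNICD1. Of 162 named genes 154 were called at 8 h; none of these changed sign in 13 settings and 76 kept their call in all that gave a value (the fit of 8 h and ethanol samples alone gave one for 150); 58 calls were lost with DESeq2, 69 in the test against a fold of 1.2, 45 without 8 h replicates 1 and 2, 24 without 8 h replicate 3, 28 without ethanol replicate 2 and 29 without ethanol replicate 3. The threshold of 0.01 and the test against a fold of 1.2 reuse the main fit, so they could not change a sign. Most of these genes were also named because they were called. The cause of the lost calls was not tested. With 2 samples a group and 4325641 to 5395008 counts a library, small changes and genes of a few counts are the least certain.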
